A study of Caenorhabditis elegans with 3 samples.

Results

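The gut of *Caenorhabditis elegans* is a single tube of epithelial cells, and 10 genes of its apical surface and its identity were followed here: *act-5*, *pept-1*, *erm-1*, *ifb-2*, *ifc-2*, *ifd-2*, *ifp-1*, *elt-2*, *elt-7* and *ges-1*. They were chosen by name, as the probes whose single gene symbol, brought up to date through its Entrez identifier, was one of these. Each had 1 probe, and all 10 had a value on every array, out of 14936 named genes among 19075 features tested and 20000 probes on the array. No probe listed for several genes included one of them. By the RefSeq gene table of assembly WBcel235, 5 of the 10 (*pept-1*, *ifc-2*, *ifd-2*, *ifp-1* and *elt-2*) lie on chromosome X, *ges-1* and *elt-7* on V, and *erm-1*, *ifb-2* and *act-5* on I, II and III.

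The study set RNA of hermaphrodites (total RNA by one label, mRNA by another) at the mid-L3 stage, the middle of the larval stage before the last, against wild-type RNA that its labels call a mixed reference. There were 3 two-colour arrays, each with another mid-L3 prep in the second channel and the reference in the first. The sources used here do not give the strain, age or culture of the larvae, the make-up of the reference, or whether the preps were separate cultures. Since every prep sat on an array of its own, prep and array cannot be told apart. The p-values and intervals below reflect spread between these 3 preps only, though not a gene's own spread alone. The limma test used for them also draws on the spread of all features, with 9.2 prior degrees of freedom.

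The brush border of the worm gut is a carpet of microvilli that faces the lumen. Each microvillus has an actin core, tied to the membrane by ezrin-type linker proteins, and beneath the carpet lies the endotube, a dense sheath of intermediate filaments found in the intestine of nematodes. Transporters in the apical membrane take up peptides, ions and metals. GATA-type transcription factors establish the gut cells in the embryo, and *elt-2* and *elt-7* stay active in them for life and drive many gut genes.

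All values are log2 ratios between the channels, with each array centred on the median of all its probes, so that 0 is the middle of the array and 1 is a 2-fold difference. The numerator is not stated. The labels name mid-L3 ahead of the reference. Larvae of this stage have no oocytes, and of 13 oocyte and eggshell genes 11 were negative past the limma threshold given below. Among all features 13.6% were. A positive ratio therefore likely stands for more RNA in mid-L3 than in the reference, but the sign is kept as in the table and called positive or negative below. In bulk RNA, fewer cells of a type and less RNA per cell cannot be told apart.

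All of the genes but *elt-7* had positive ratios on every array, led by *act-5* and *pept-1*, and *ifd-2*, *elt-2* and *elt-7* did not pass the test. Of the 10 genes, 7 were positive past a Benjamini-Hochberg adjusted p of 0.05 in limma, a moderated test of the mean against 0 fitted over all features, and 0 were negative. Among all features 13.5% were positive and 13.6% negative past this threshold. At an unadjusted p under 0.05, 8 of the 10 were positive and 0 negative, against 18.6% and 18% of all features. The median of the 10 means was 1.40, against 0.01 over all features, and on the separate arrays the median of the 10 was 1.22, 1.60 and 1.38 in preps 1, 2 and 3. The genes were picked with results of these data known, so this count describes them and was not tested as a set.

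**Figure D1:**
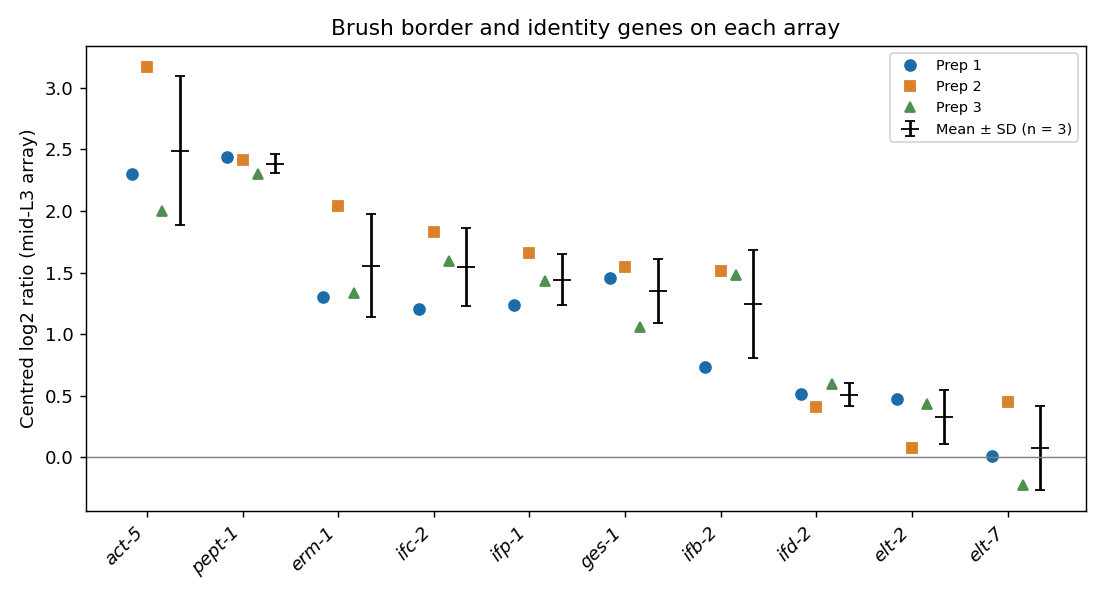
Centred log2 ratio (vertical axis) of the 10 genes on the arrays of preps 1, 2 and 3, with the mean ± SD (n = 3) in black at the right of each gene. Genes stand in order of their mean, and the 7 at the left lie above 0.7 on every array, while *ifd-2*, *elt-2* and *elt-7* lie below 0.6.

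The highest ratio belonged to *act-5*, the actin of the microvilli of the gut, which was at 2.30, 3.17 and 2.00 in preps 1, 2 and 3. Its mean was 2.49 ± 0.61 (SD, n = 3, as for all errors here), a 5.62-fold difference, with a 95% interval from limma of 1.98 to 3.00 and an adjusted p of 1.69e-05. Prep 2 stood above the others. It ranked 83rd from the top of all features, at the 99.6 percentile.

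*pept-1* encodes the proton-coupled transporter that takes up short peptides from the gut lumen, and it was the steadiest of the called genes. Its ratios were 2.44, 2.42 and 2.30, all within 0.14 of each other, with a mean of 2.38 ± 0.08. This is a 5.22-fold difference, with a 95% interval of 1.99 to 2.78 (limma, adjusted p = 3.98e-06), at the 99.5 percentile. The limma standard error behind this interval was 0.18, larger than the SD of 0.08 of the gene's own ratios. *act-5* and *pept-1* changed places between arrays: *act-5* was lower by 0.13 in prep 1 and by 0.29 in prep 3 and higher by 0.75 in prep 2, so the order of these 2 is not settled.

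*erm-1* encodes the ezrin, radixin and moesin family protein that links actin to the apical membrane. It was at 1.30, 2.04 and 1.33 in preps 1, 2 and 3. The mean of 1.56 ± 0.42 is a 2.94-fold difference (limma, adjusted p = 0.000204). It lay below *pept-1* on all 3 arrays, by 0.83 ± 0.40.

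The 4 intermediate filament genes of the set split into 3 with called ratios and 1 without. *ifc-2* was at 1.20, 1.83 and 1.60, with a mean of 1.54 ± 0.32 (limma, adjusted p = 0.000146). *ifp-1* was at 1.24, 1.66 and 1.43, with a mean of 1.44 ± 0.21 (limma, adjusted p = 0.000169). In both, prep 1 was the lowest and prep 2 the highest.

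*ifb-2*, whose protein is a core filament of the endotube, was at 0.74, 1.52 and 1.48, with a mean of 1.24 ± 0.44 (limma, adjusted p = 0.00102). Prep 1 was lower than the other arrays. *ifd-2* was at 0.51, 0.41 and 0.60, positive on each array, but its mean of 0.51 ± 0.09 missed the threshold (limma, adjusted p = 0.0604, 95% interval 0.11 to 0.90). It lay below *ifb-2* on all arrays, by 0.23, 1.11 and 0.88. *ifd-2* passed in 2 of 11 other settings, at an adjusted p of 0.0427 with arrays centred within sectors of the probe order and of 0.0175 with arrays weighted by their quality, while it ranged from 0.0704662 to 0.348209 when a prep was left out.

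*ges-1* encodes a gut esterase and is a classical marker of the differentiated intestine. It was at 1.45, 1.55 and 1.06 in preps 1, 2 and 3, lowest in prep 3. Its mean was 1.35 ± 0.26, a 2.55-fold difference (limma, adjusted p = 0.000304).

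The GATA factor genes had the lowest ratios of the set. *elt-2*, for the main regulator of gut gene expression, was at 0.47, 0.08 and 0.43, positive on each array. The mean of 0.33 ± 0.22 did not pass (limma, adjusted p = 0.241), and its 95% interval ran from -0.08 to 0.74. *elt-7*, for a partner with overlapping function, was at 0.01, 0.44 and -0.23, on both sides of 0. Its mean of 0.08 ± 0.34 did not pass (limma, adjusted p = 0.836), its 95% interval ran from -0.36 to 0.51, and without prep 2 it was at -0.11. These intervals still allow a difference of up to 1.67-fold for *elt-2* and 1.43-fold for *elt-7*.

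On each array the 7 called genes lay above the 3 others without overlap, though the calls themselves made this split. The lowest of the 7 stood at 0.74, 1.52 and 1.06 in preps 1, 2 and 3, and the highest of the other 3 at 0.51, 0.44 and 0.60. Neighbours in the order of means were mostly closer than their spread. Of the 9 neighbouring pairs, only *pept-1* and *erm-1*, *ifb-2* and *ifd-2*, and *ifd-2* and *elt-2* kept their order on all 3 arrays, and the last of these by 0.18 ± 0.15. *erm-1*, *ifc-2*, *ifp-1*, *ges-1* and *ifb-2* thus form a run with means from 1.24 to 1.56 whose neighbours cannot be ordered.

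**Figure D2:**
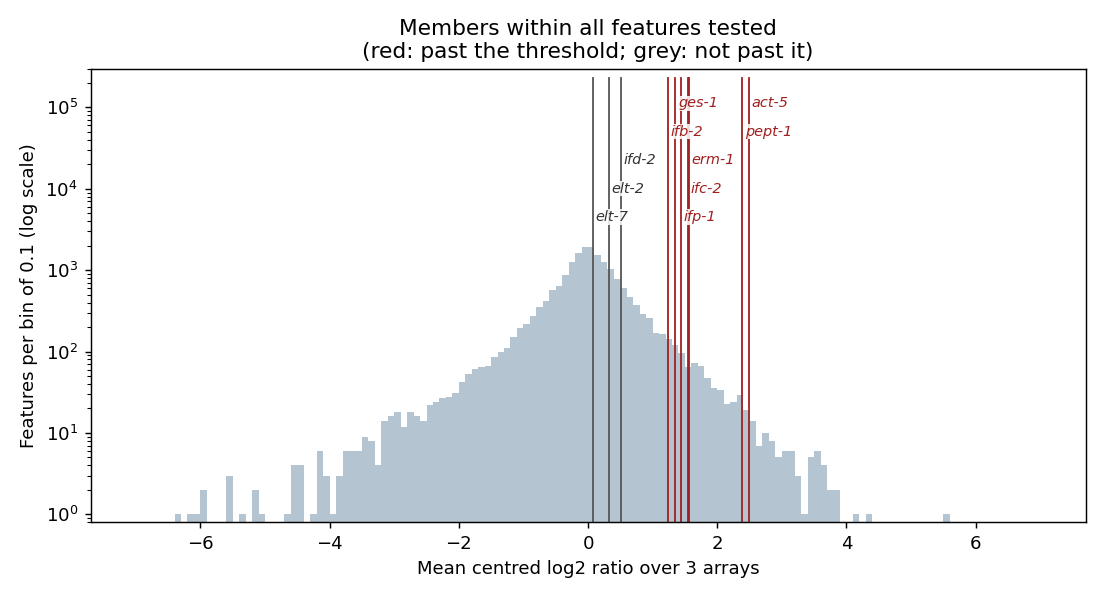
Distribution of the mean centred log2 ratio over 3 arrays for all 19075 features (bars, number per bin of 0.1, log scale), with a line at the mean of each of the 10 genes. The 7 genes past the threshold (red) lie between 1.24 and 2.49, at or beyond the 95.9 percentile, and the 3 others (grey) between 0.08 and 0.51.

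Within all features, *erm-1* and *ifc-2* stood at the 97.6 percentile, *ifp-1* at 97.1, *ges-1* at 96.6 and *ifb-2* at 95.9. *ifd-2* stood at 83.4, *elt-2* at 75.4 and *elt-7* at 56.8. All 7 called genes kept their call when any prep was left out, and their means then stayed between 1.11 (*ifb-2*) and 2.74 (*act-5*). Without prep 1 or prep 3, however, the adjusted p of the listed genes followed the size of their mean. It fell to 5.66e-17 for *act-5* without prep 1, so these limma fits hardly weighed the agreement of the remaining arrays. With a minimum of 2-fold built into the limma test, 2 of the 10, *act-5* and *pept-1*, still passed, against 1.61% of all features with a positive ratio.

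Prep 2 gave the highest value for 7 of the 10 genes. Its ratios were also wider in general: the median absolute deviation of all ratios was 0.68 in prep 2 against 0.50 and 0.46 in preps 1 and 3. Among the 1195 features with a mean above 1, prep 2 was the highest in 54.9%. Values also differed along the probe order, which was cut into 32 sectors of 625 probes. Spot positions were not used, so an effect of place on the array was not tested. The median ratio of the sector with *erm-1* was -0.14, 0.31 and 0.19 in preps 1, 2 and 3. For the sector with *ifb-2* it was -0.08, 0.34 and 0.25. With every such sector centred on its own median the means of *erm-1* and *ifb-2* were 1.44 and 1.07, both still past the threshold (limma, adjusted p = 0.00229 and 0.00449).

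The actin and filament genes of the gut were compared with the other genes of their families, most of which are used in other tissues. All 4 other actin genes were positive past the threshold, beside 13.5% of all features. *act-1* was at 1.97, 3.08 and 1.48, *act-3* at 1.81, 3.49 and 1.44 and *act-4* at 1.27, 2.52 and 1.31, with prep 2 the highest, as for *act-5*. *act-2* was at 1.40, 1.37 and 1.29.

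The mean of *act-5* exceeded that of *act-2* by 1.13 ± 0.58 and that of *act-4* by 0.79 ± 0.21, with the same sign on all arrays. It exceeded that of *act-1* by 0.32 ± 0.22, also on all arrays, while against *act-3* the sign changed in prep 2. Actin genes are alike in their coding sequence, though not all to the same degree, so their spots may share targets. How much of the *act-5* signal came from the other actins was not tested.

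Of 7 other intermediate filament genes measured, 5 were positive and 1 negative past the threshold, beside 13.5% and 13.6% of all features. Their median was 1.15. *ifd-1*, also a gut filament gene, was at 1.27, 2.62 and 1.46, with a mean of 1.78 ± 0.73, above its namesake *ifd-2* on every array by 1.28 ± 0.81. *ifb-1*, *ifa-1* and *ifa-3*, which serve in epidermis and other epithelia, had means of 1.67 ± 0.41, 1.37 ± 0.22 and 1.15 ± 0.14. *ifa-1* lay between the means of *ifb-2* and *ifc-2*, *ifb-1* above *ifb-2* on every array by 0.47, 0.42 and 0.40, and *ifa-3* below *ifc-2* and *ifp-1* on every array.

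The remaining filament genes lay lower. *ifc-1* was at 0.36, 1.58 and 0.49 (limma, adjusted p = 0.0284), and did not pass without prep 2, at 0.43 (adjusted p = 0.136). *ifa-4* was the one negative gene, at -0.75, -1.08 and -0.91 (limma, adjusted p = 0.00327). *lmn-1*, for the nuclear lamin, was at -0.27, 0.81 and 0.29 and did not pass.

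The peptide transporter genes went opposite ways. *pept-2* and *pept-3*, which encode related oligopeptide transporters, were at -0.86, -1.10 and -1.35 and at -1.32, -1.09 and -1.13 in preps 1, 2 and 3. Their means of -1.10 ± 0.25 and -1.18 ± 0.13 were both negative past the threshold (limma, adjusted p = 0.0012 and 0.00059). *pept-1* lay above *pept-2* by 3.48 ± 0.18 and above *pept-3* by 3.56 ± 0.17, with no overlap on any array.

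**Figure D3:**
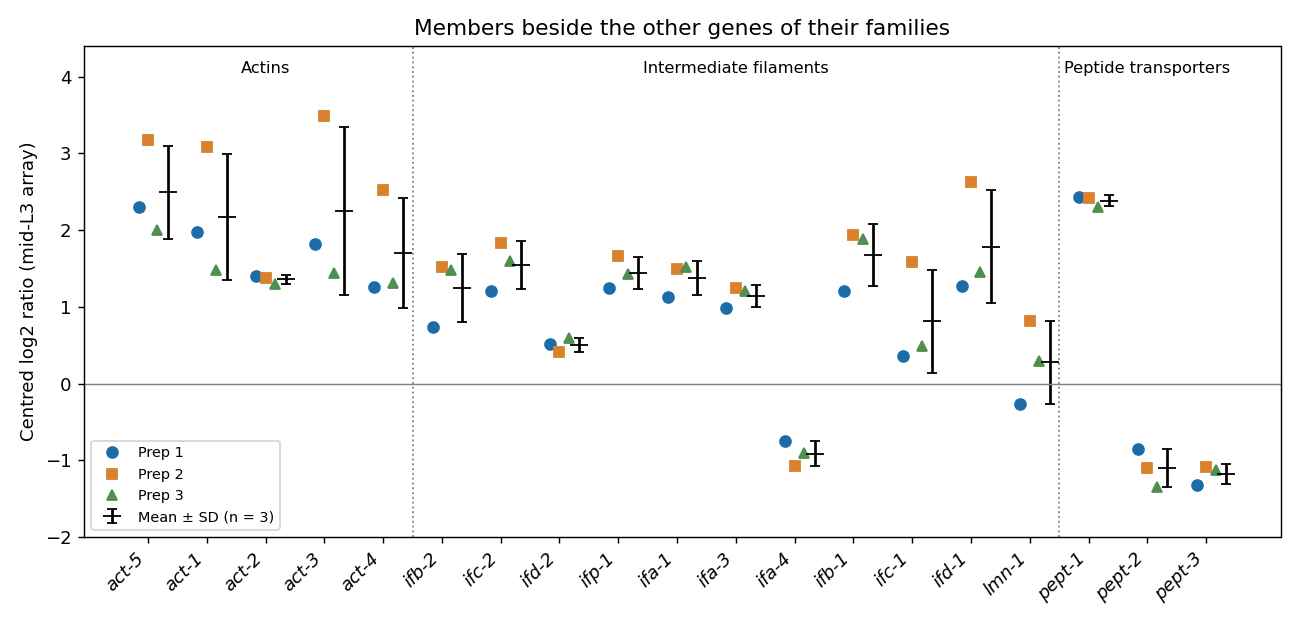
Centred log2 ratio (vertical axis) of actin, intermediate filament and peptide transporter genes in preps 1, 2 and 3, with mean ± SD (n = 3) in black. All 5 actins lie above 1.2 on every array, *ifa-4* lies below 0, and *pept-1* lies above 2.2 while *pept-2* and *pept-3* lie below -0.8.

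Genes that work beside the brush border proteins were followed in lists drawn up from textbook knowledge. Of 20 measured genes of the apical cortex, terminal web and junctions, 8 were positive and 0 negative past the threshold. Among all features 13.5% and 13.6% were. At an unadjusted p under 0.05 in limma the counts were 12 and 0, beside 18.6% and 18% of all features. The median of the list was 0.50. The highest were *spc-1*, for alpha-spectrin, at 1.20 ± 0.27 and *eat-20*, a Crumbs-like gene, at 1.18 ± 0.53. The lowest was *pkc-3*, for the atypical protein kinase C of the apical polarity complex, at -1.45, 0.06 and 0.45, which did not pass the threshold.

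Several partners of the endotube and the microvilli were among the positive genes, named after their values were seen. *ifo-1*, which organises the filaments of the gut, was at 0.70, 1.15 and 1.44 (limma, adjusted p = 0.00183), and, like *ifb-2*, was lowest in prep 1. *ifb-2* and *ifo-1* differed by 0.15 ± 0.19. *bbln-1*, which acts on the same filaments, was at 1.01, 1.26 and 0.60. *eps-8*, for an actin-capping protein of microvilli, was at 1.20, 0.99 and 1.06 (limma, adjusted p = 0.00101). *sma-1*, for the apical beta-heavy spectrin, was at 1.04, 1.24 and 0.50 and missed the threshold without prep 2 (adjusted p = 0.0515), as did the junction gene *ajm-1* (adjusted p = 0.154), with all preps at 0.75 ± 0.60.

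Of 14 measured genes from the list for apical membrane trafficking, 4 were positive and 1 negative, beside 13.5% and 13.6% of all features. Their median was 0.18. It ranged from 0.11 to 0.26 when a prep was left out and was 0.04 with arrays centred within sectors. The leading ones make lipids rather than carry vesicles: *fasn-1*, the fatty acid synthase gene, was at 2.54, 3.33 and 2.27, and *acs-1*, for an acyl-CoA synthetase, at 2.17, 2.34 and 0.66, which did not pass without prep 2 (limma, adjusted p = 0.0514). The negative gene was *rab-10*, for a GTPase of endocytic recycling in the gut, at -1.15, -1.05 and -0.86 (adjusted p = 0.00153). *rab-8* was at -0.44 ± 0.37 and did not pass.

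Of 10 measured genes for endoderm specification and other GATA factors, 0 passed in limma in either direction, also at an unadjusted p under 0.05. At that unadjusted p 18.6% of all features were positive and 18% negative, and past the adjusted threshold 13.5% and 13.6%. With arrays centred within sectors 1 gene of the list was negative past it, and 1 with arrays weighted. The highest was *end-3*, an early endoderm GATA factor gene, at 0.46, 1.39 and -0.37, which passed without prep 3, at 0.92 (adjusted p = 0.0176). *end-1*, its neighbour in that step, was at -0.32, 0.99 and 0.02. The lowest were *med-1* at -0.41 ± 0.40 and *pqm-1*, for a zinc finger factor, at -0.29 ± 0.68. The medians of this list on the arrays were -0.11, 0.36 and -0.05.

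Of 19 measured genes listed for ion and nutrient transport, 8 were positive and 3 negative, beside 13.5% and 13.6% of all features. Their median was 0.49, and 0.34 without prep 2. *vha-6*, for the V-ATPase subunit of the apical gut membrane, was at 2.03, 3.03 and 1.95, with the arrays in the same order as for *act-5*. *pgp-1*, for an efflux pump, was at 1.71, 1.69 and 2.88. Named after their values were seen, *nhx-2*, for the apical sodium-proton exchanger that works with *pept-1*, was at 1.42, 2.00 and 1.46 (limma, adjusted p = 0.000103), and *hrg-4*, for a haem importer, at 1.57, 1.84 and 1.89. The negative genes were *ftn-1*, for the gut ferritin, at -1.15, -2.23 and -2.12, and *pept-2* and *pept-3*. Whether *pept-2* and *pept-3* are used in the gut was not checked.

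Genes for digestion, storage and metal binding spread the widest. Of 18 measured, 6 were positive and 3 negative, beside 13.5% and 13.6% of all features. Their median was 0.48, and the positive genes numbered 3 without prep 2. The extremes were *cpr-5*, for a cathepsin B-like protease, at 3.58, 4.26 and 3.68, and the yolk protein gene *vit-2*, an adult gut product, at -5.135, -4.99 and -6.41. Next were *pho-1*, for a gut acid phosphatase, at 1.65 ± 0.31 and *mtl-1*, for a metallothionein, at -3.14 ± 0.37. The 10 brush border and identity genes, from 0.08 to 2.49, lay well inside this range. The other yolk and metallothionein genes measured did not pass, with *vit-5* at 0.52 ± 0.68, *vit-6* at 0.14 ± 0.41 and *mtl-2* at 0.07 ± 1.21.

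Of 11 measured gut granule and lysosome genes, 3 were positive and 2 negative, beside 13.5% and 13.6% of all features. The negative genes numbered 1 without prep 1, without prep 3, with arrays centred within sectors and with arrays centred on the peak of their density. The transporter genes *pgp-2* and *cdf-2*, whose proteins sit in the granule membrane, were at 1.28 ± 0.25 and 1.08 ± 0.67. The lowest were the granule biogenesis genes *glo-2* and *apb-3*, at -1.35 ± 0.09 and -0.60 ± 0.21. *apb-3* did not pass without prep 1 (limma, adjusted p = 0.239) or without prep 3 (adjusted p = 0.198). Other biogenesis genes did not pass and lay on both sides of 0, among them *glo-3* at 0.45 ± 0.37, *apm-3* at 0.21 ± 0.12 and *glo-4* at -0.22 ± 0.20.

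**Figure D4:**
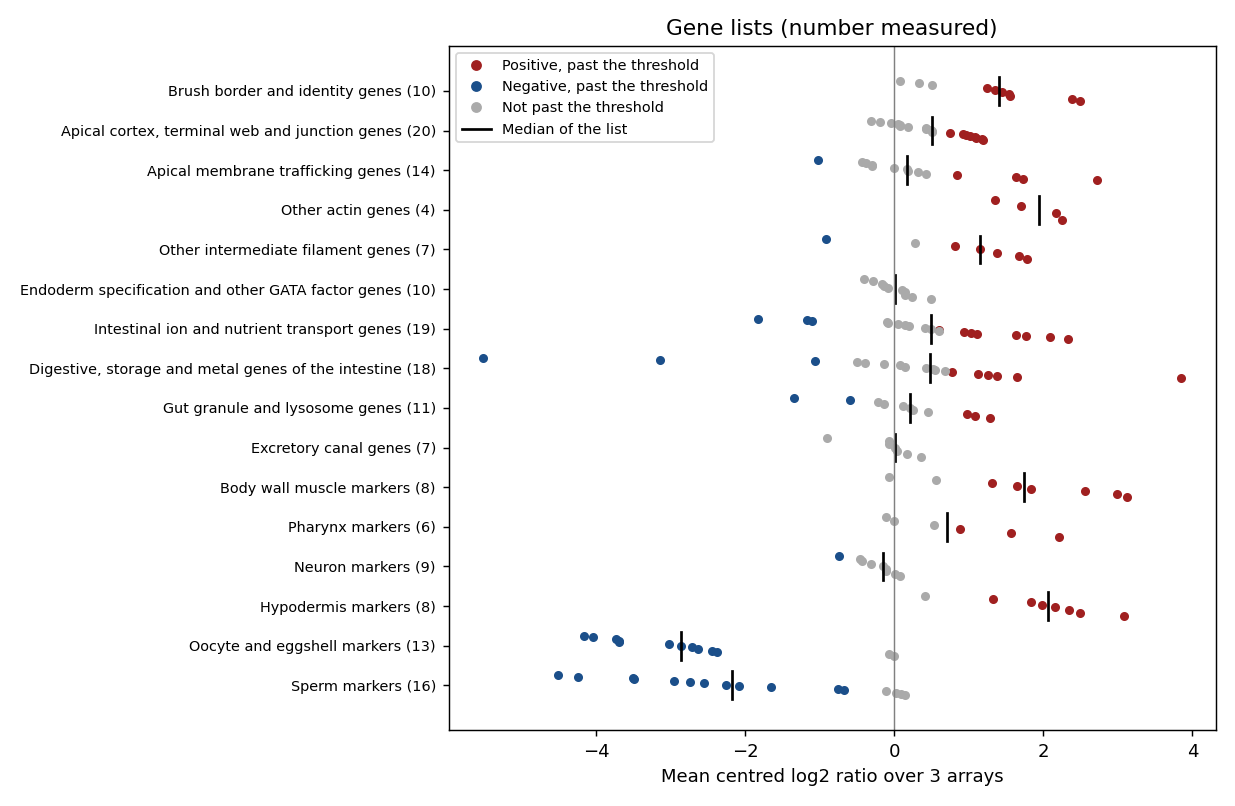
Mean centred log2 ratio over 3 arrays of each measured gene (points), by gene list, with the number measured in brackets and a black line at the list's median. The 10 brush border and identity genes have a median of 1.40, while hypodermis markers lie at 2.06, body wall muscle markers at 1.74, and oocyte and sperm markers at -2.86 and -2.17.

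Markers of other cell types moved as well, and their part in the ratios of the gut genes was not tested. Their counts past the threshold stand beside 13.5% positive and 13.6% negative of all features. Of 13 oocyte and eggshell markers 11 were negative and 0 positive, with array medians from -3.17 to -2.75 and with *egg-1* and *cpg-2* at 0.00 ± 0.16 and -0.07 ± 0.27. Of 16 sperm markers 12 were negative and 0 positive, with array medians from -2.49 to -1.88. Body wall muscle had 6 of 8 markers positive (array medians 1.65 to 1.84), hypodermis 7 of 8 (1.56 to 2.48) and pharynx 3 of 6 (0.61 to 0.72).

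Neuron markers had 1 of 9 negative and 0 positive (array medians -0.53 to -0.01), against 0 and 1 without prep 1 and 2 and 0 without prep 3. The excretory canal also uses *act-5* and *erm-1* at its apical surface. Of its 7 measured genes, 0 passed in limma, also at an unadjusted p under 0.05. At that unadjusted p 18.6% of all features were positive and 18% negative. The array medians of the 7 genes were -0.14, 0.06 and 0.22. Without prep 3, *exc-7* was negative past the threshold at a mean of -1.34, though it was at -2.84 in prep 1 and 0.17 in prep 2. The limma fit without prep 3 hardly weighed a gene's own spread.

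The named genes nearest to each of the called ones, by Euclidean distance between their ratios on the 3 arrays, were found among all 14936. Nearest to *act-5* was *vgln-1*, at 2.22, 3.06 and 1.86 (distance 0.202), and nearest to *pept-1* was *dsc-4*, at 2.57, 2.36 and 2.21 (distance 0.166). *erm-1* lay nearest to *ZK686.3* (0.0702), *ifc-2* to *Y70C5C.1* (0.165), *ifp-1* to *clec-166* (0.0347), *ges-1* to *crt-1* (0.107) and *ifb-2* to *hsp-16.1* (0.126). With so many genes and 3 arrays, such nearness describes the values alone.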

How the data were processed

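Values were measured on 3 two-colour arrays, 1 per mid-L3 prep, against the same mixed reference. The deposited values are log2 ratios made by the authors. For dyes, background and normalization, their choice is not given in the sources used here. The base was read from the values, as antilogs to base 2 were multiples of 0.001 for 97.86%, 97.03% and 98.33% of values in preps 1, 2 and 3. The deposited medians were 0.0272, -0.0664 and 0.0328, all near 0, but whether and how the authors had centred the arrays is unknown. The direction of the ratio is unknown too, and the arrays correlated with each other at 0.74 to 0.81 over all features. No spot intensities were used, and the number of arrays limits the precision.

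The platform annotation, an old one, listed 1 gene symbol for 15655 of 20000 probes, several for 198 and none for 4147. Symbols of 15569 were updated by Entrez identifier (RefSeq table, WBcel235). Arrays were centred on their median over all probes, probes of a gene averaged, and features without a value on all 3 arrays left out. Each mean was set against 0 in limma 3.58.1 (R 4.3.3, intercept only, two-sided, 9.2 prior degrees of freedom, checked on simulated data), with Benjamini-Hochberg adjustment over all features. The test leaves out the spread of the reference. The genes and lists were chosen with earlier results of these data known. Named were all members, all other actin and filament genes, the 2 highest and 2 lowest genes of each list (for lists of other cell types mainly counts are given), and the nearest genes, except 1 gene that is not reported here. Some further genes were named after their values were seen. Alternatives are given at the end. Python 3.11.15 and matplotlib 3.10.9 made the figures.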

Additional observations from a re-analysis of the deposited data

How the results depend on the processing

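The count of 7 positive and 0 negative genes of the brush border set in limma held under every alternative tried, those that left out a prep included, except that the positive count was 8 with arrays centred within sectors or weighted, where *ifd-2* joined, and 2 with a 2-fold minimum. Over all features 2569 were positive and 2602 negative. The negative count was 1622 with arrays centred on the peak of their density, and with a 2-fold minimum the counts were 308 positive and 438 negative. That minimum asks for more than the main test by its construction. Without one prep, positive features numbered 1748 to 2252 and negative ones 1820 to 2161. The mean of *elt-7* changed sign, to -0.0707 with array weights and to -0.109 without prep 2, in neither case past the threshold (-0.109 to 0.228 over the leave-one-out fits), and the cause was not tested. Counts for the other lists stayed within 1.5 times of the main ones in 390 comparisons and moved further in 30. List medians that moved by more than their spread over arrays were those of membrane trafficking (0.04 within sectors, 0.26 without prep 1), gut transport (0.34 without prep 2) and pharynx (0.63 within sectors). The other means of the 10 genes kept their sign under all alternatives. No paired analysis was possible because there was 1 group of preps, each already set against the reference on its own array. Signal over background is unknown here, so what dim spots limit could not be judged.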
